A study of Mus musculus with 9 samples.

Results

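The genes described are 10 transcripts of glucose use and of the response to low oxygen, measured by polyA RNA-seq in mouse embryos of stage E10.5, in the posterior second heart field (pSHF). They were chosen by symbol, with earlier results of these data known, from the 27198 rows of the authors' deposited Cuffdiff table. Each of the 10 symbols matched 1 row. The pSHF, mesoderm that supplies the atria and the inflow region of the heart, was dissected from embryos of mixed strain background that carried either intact Shh (Shh WT, 4 libraries) or a Shh knockout (Shh KO, 5 libraries). Shh encodes the ligand Sonic hedgehog, and the comparison asks which transcripts of this tissue depend on it. The labels give neither the removed part of Shh nor whether each library stands for its own embryo, so the spread behind each p-value, that between these samples, could be technical.

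Glycolysis splits glucose into pyruvate, and cells that are short of oxygen turn pyruvate into lactate. The transcription factor HIF, a pair of an oxygen-labile alpha subunit and the stable subunit Arnt, accumulates when prolyl hydroxylases lack oxygen and then activates genes of glucose uptake, glycolysis, mitochondrial turnover and vessel growth. Early embryos grow at low oxygen tension and rely strongly on glycolysis, while the heart later shifts to oxidative metabolism.

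HIF binds a short core, ACGTG or GCGTG, and the promoters show how differently the 10 genes carry it. The RefSeq window (GRCm38.p6) with the start site nearest to the row's 5′ end was used for all 10 genes. It runs from 250 bases before to 50 bases after the start. Of the 4 windows printed here, the first 3 belong to genes with higher fold changes and the last to a gene whose fold change was near 0. Capitals mark every core on either strand (on the reverse strand CACGT or CACGC).
Slc2a1, chr4:119108495-119108794, plus strand: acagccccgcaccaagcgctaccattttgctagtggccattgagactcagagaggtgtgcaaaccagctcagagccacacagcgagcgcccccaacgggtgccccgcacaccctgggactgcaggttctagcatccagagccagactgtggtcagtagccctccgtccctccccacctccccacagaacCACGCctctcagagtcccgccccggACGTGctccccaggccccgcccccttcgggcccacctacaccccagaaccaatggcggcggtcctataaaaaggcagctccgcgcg
Bnip3, chr7:138909457-138909756, minus strand: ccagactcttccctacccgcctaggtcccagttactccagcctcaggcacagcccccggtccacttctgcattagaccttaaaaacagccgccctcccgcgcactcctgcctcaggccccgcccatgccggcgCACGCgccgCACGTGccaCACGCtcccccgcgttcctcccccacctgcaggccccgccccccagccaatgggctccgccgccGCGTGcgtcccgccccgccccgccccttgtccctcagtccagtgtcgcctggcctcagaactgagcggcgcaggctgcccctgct
Egln3, chr12:54203825-54204124, minus strand: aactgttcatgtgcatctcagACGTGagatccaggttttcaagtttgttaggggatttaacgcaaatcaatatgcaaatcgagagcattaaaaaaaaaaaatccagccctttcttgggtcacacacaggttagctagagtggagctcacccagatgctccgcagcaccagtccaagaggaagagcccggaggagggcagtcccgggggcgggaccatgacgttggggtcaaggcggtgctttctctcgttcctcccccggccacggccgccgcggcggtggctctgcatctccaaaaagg
Ldha, chr7:46845554-46845853, plus strand: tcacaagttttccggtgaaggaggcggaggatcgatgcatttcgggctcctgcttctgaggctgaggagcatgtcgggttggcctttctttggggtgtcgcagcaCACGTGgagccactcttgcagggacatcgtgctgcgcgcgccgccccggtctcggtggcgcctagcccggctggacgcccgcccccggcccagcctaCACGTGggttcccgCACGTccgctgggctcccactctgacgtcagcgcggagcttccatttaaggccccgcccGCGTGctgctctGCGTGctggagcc

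In these windows ACGTG occurred in 6 of the 10 genes and GCGTG in 6, and 8 had at least 1 of the cores. Across the 9298 named tested genes with a window, 64.4% had a core, 26.2% had ACGTG and 52.9% had GCGTG. Ldha held 5 matches of ACGTG and 2 of GCGTG, the most of the 10, and its fold change was the second lowest. Slc2a1 held 1 of each, and Egln3 held 1 ACGTG, which began at position −229 from the start. Vegfa and Aldoa held none in these windows. Other start sites were not searched, and the RefSeq genes of Aldoa, Ldha, Eno1 and Ankrd37 begin upstream of the start used. Cores that overlap on both strands, as in CACGTG, were counted once per strand. Over all genes with a window, the median log2 fold change was 0.01 with ACGTG and 0.02 without it, and the median G+C content was 62.0% and 61.3%. G+C content differed more for GCGTG, with medians of 63.7% with it and 59.0% without it. For either core the medians were 63.0% and 58.7%. The GLI motif GACCACCCA, searched on both strands, was in 0 of the 10 windows and in 0.215% of all genes with a window.

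**Figure D1:**
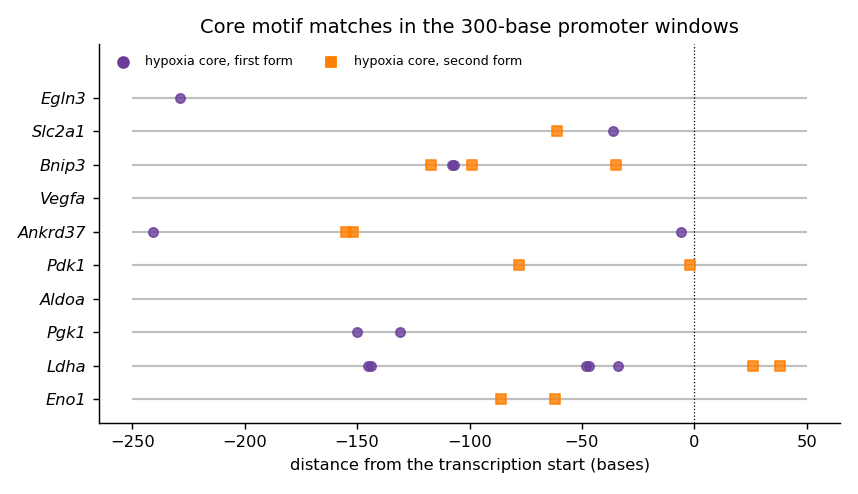
Positions of the HIF core in the 300-base promoter windows of the 10 genes, ordered by fold change from Egln3 (top) to Eno1 (bottom). The x axis is the distance in bases of a match's first base from the transcription start, circles are ACGTG and squares GCGTG on either strand. Matches are spread over genes with high and low fold changes, with 7 in Ldha and none in Vegfa or Aldoa.

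None of the 10 genes was called by Cuffdiff at a q under 0.05, while all 10 had a deposited fold change above 0 in Shh KO, 9 of them also when fold changes were centred on the median of all named rows (Eno1 turned to −0.01). Slc2a1, the main glucose transporter of embryonic cells, and Egln3, an oxygen-dependent prolyl hydroxylase that HIF itself induces, came closest. The 4 glycolytic enzymes lay near 0 and the other 6 genes higher. All fold changes below are Shh KO over Shh WT. Of 13048 named tested rows, 1.94% were called in either direction, 1.56% higher and 0.383% lower. A fold change above 0 was seen in 54.9% of these rows. At an unadjusted Cuffdiff p under 0.05, 4 of the 10 genes were higher and 0 lower, against 5.83% and 1.68% of named tested rows. The median log2 fold change of the 10 genes was 0.37, and that of all named tested rows was 0.02. The unadjusted threshold was chosen after seeing the data. These values describe the 10 genes and are no test of them, since the genes were chosen with earlier results of these data known.

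Markers of several cell types differed between the genotypes in the same comparison. Shh itself went from 15.7 to 5.44 FPKM according to the authors' deposited table (Cuffdiff q = 0.00554), in a row wider than the gene. Of 12 pSHF markers, all tested, 3 were called lower, among them Osr1, which went from 71.4 to 33.5 FPKM by the authors' deposited table (median log2 fold change −0.16). Cardiomyocyte markers were called higher in 9 of 9 tested (median 1.19), hepatoblast markers in 7 of 7 (1.77) and macrophage markers in 3 of 6 (1.18). Cuffdiff called 0 of 9 erythroid rows (median −0.12) and 0 of 7 endothelial markers (0.15), and neither list had a member at an unadjusted p under 0.05. Of all named tested rows, 1.56% were called higher and 0.383% lower. In bulk tissue, a change in the share of a cell type and a change in RNA per cell cannot be told apart. The part of cardiomyocytes, hepatoblasts or macrophages in the fold changes of the 10 genes, or of the wider glycolysis and hypoxia lists given below, was not tested. Levels of markers without a call were not used here, since the table with FPKM values lists called genes.

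The authors' deposited tables hold 1 pooled result per gene and no value per library. Their shorter table of FPKM values (fragments scaled to transcript length and library size) lists called genes, and 0 of the 10 are in it, so no level in Shh WT or Shh KO is given for them. Overlap between the libraries of the genotypes could not be examined, and the depth of each library is unknown. The error of a fold change was derived from the table in 2 ways. The standard error (SE) implied by the p-value divides the fold change by the normal quantile of its p. The SE implied by the test statistic divides the fold change by the statistic, both as absolute values, and is wider for each of the 10 genes. Over the tested rows with a p under 0.5, the statistic had a median of 0.476 times that quantile. No p in the table lies below 5e-05, where 153 tested rows stand, and at that floor the SE from the p-value is an upper limit. The narrower SE belongs to the p-values on which the calls rest.

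Glucose uptake gave the lowest p-value of the 10 genes. Slc2a1 (chromosome 4, 119108745 to 119137329, mm10) had a log2 fold change of 0.62 by the authors' deposited table, a 1.53-fold difference (Cuffdiff p = 0.00085, q = 0.0513). Its SE was 0.18 from the p-value and 0.38 from the statistic. The called row with the highest p stood at 0.00075, and 265 named tested rows had a p at most that of Slc2a1, beside 253 called rows. Of the 203 called rises, 3 had a smaller fold change than Slc2a1. When the p-values of named rows alone were adjusted, Slc2a1 passed at q = 0.0417, and at a threshold of 0.10 it passed as deposited.

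The glycolytic enzymes showed small differences. Aldoa (chromosome 7, 126795234 to 126800447), the aldolase that splits fructose bisphosphate, had a log2 fold change of 0.17 per the authors' deposited table (Cuffdiff q = 1.00). Pgk1 (chromosome X, 106187124 to 106203699), the kinase of the first ATP-yielding step, stood at 0.10 on the log2 scale according to the authors' deposited table. Ldha (chromosome 7, 46845804 to 46855627), the lactate dehydrogenase subunit that favours lactate formation, stood at 0.04 by the authors' deposited table. Eno1 (chromosome 4, 150237197 to 150248873), the ubiquitous enolase, stood at 0.01 per the authors' deposited table, and at −0.01 when fold changes were centred on the median of all named rows. The p-values of these enzymes ran from 0.33 to 0.947 according to the authors' deposited table. The 95% interval of Ldha ran from −0.30 to 0.38 with the narrower SE and from −0.69 to 0.76 with the wider one, so a missed call does not show that its level was the same in both genotypes.

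Near-identical copies limit the enzyme values. The row of Gm5506, an intronless copy of Eno1, spans chromosome 18 from 47922841 to 48107980, far wider than such a copy. It had a log2 fold change of −0.03 by the authors' deposited table, and the Aldoa-related genes Aldoart1 and Aldoart2 had 0.09 and 0.35 there. How reads shared by such copies were assigned is not stated in the sources used here.

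Among genes that act on mitochondria, Pdk1 (chromosome 2, 71873272 to 71903858) encodes a kinase that keeps pyruvate out of the citric acid cycle. It had a log2 fold change of 0.32 per the authors' deposited table (Cuffdiff p = 0.0919). Bnip3 (chromosome 7, 138890836 to 138909506), a mitochondrial protein that promotes removal of mitochondria, had 0.51 on the same scale according to the authors' deposited table (Cuffdiff p = 0.0256, q = 0.524). The SE was 0.19 from the p-value and 0.39 from the statistic for Pdk1, whose fold change exceeded the first but not the second. For Bnip3 it was 0.23 and 0.48, both below its fold change.

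The oxygen sensor gene stood first in fold change. Egln3 (chromosome 12, 54178981 to 54203874) had the highest log2 fold change of the 10 genes, 0.85 by the authors' deposited table, a 1.80-fold difference (Cuffdiff p = 0.00225, q = 0.1001). Its SE was 0.28 from the p-value and 0.56 from the statistic, and 4.32% of named tested rows had a fold change at least as high. Ankrd37 (chromosome 8, 45996908 to 45999850), an ankyrin repeat gene induced by hypoxia, had 0.42 per the authors' deposited table (Cuffdiff p = 0.144). Vegfa (chromosome 17, 46016993 to 46032377), the growth factor that draws blood vessels to tissue, had a log2 fold change of 0.44 according to the authors' deposited table (Cuffdiff p = 0.0219, q = 0.48). The 6 genes outside the enzyme group ranged from 0.32 to 0.85 and the 4 enzymes from 0.01 to 0.17, so the ranges did not overlap. This holds for the 10 genes only. In the wider lists given below, other glycolysis genes ranged from −0.73 to 1.39 and other hypoxia genes from −0.67 to 1.44. Between neighbours in the order of the 10 fold changes, 0 of 9 differences exceeded 1 SE of the difference, taking genes as independent.

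**Figure D2:**
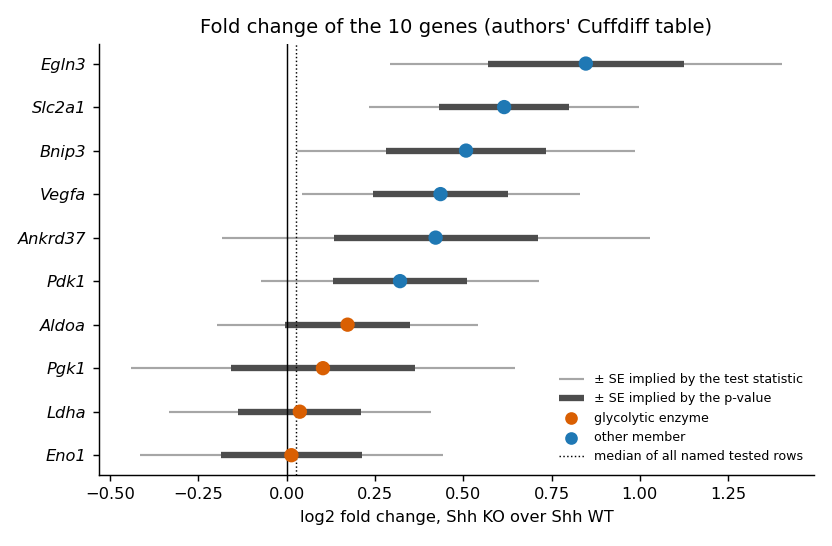
Log2 fold change of each gene (x axis, Shh KO over Shh WT), with thick bars for ± 1 SE implied by the p-value and thin bars for ± 1 SE implied by the test statistic. The 4 enzymes (orange) lie between 0.01 and 0.17, and the other 6 genes (blue) between 0.32 and 0.85.

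**Figure D3:**
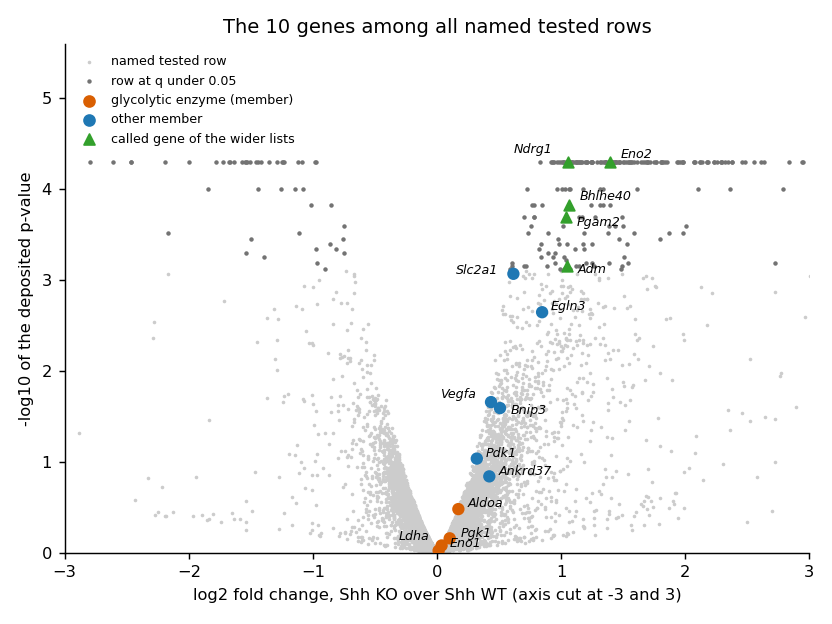
Log2 fold change (x axis) against −log10 of the deposited p-value (y axis) for the named tested rows, with the 10 genes as circles and the called genes of the wider glycolysis and hypoxia lists as triangles. Slc2a1 lies just under the dark called rows, while the enzymes sit at the base.

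The genes next to the 10 in the genome were spread around 0. The nearest named tested row on each side gave 20 neighbours. Of these, 9 had a fold change above 0 and 0 were called by Cuffdiff, against 54.9% and 1.94% of named tested rows. None of the 20 reached an unadjusted p under 0.05, against 5.83% of named tested rows higher and 1.68% lower. With 20 rows, such counts cannot be told from those shares. The median log2 fold change of the neighbours was −0.01. The row of Ankrd37 lies 49 bases from that of Ufsp2, whose log2 fold change was −0.03 by the authors' deposited table. Around Slc2a1, the row shared by D4Ertd617e and Ebna1bp2 (−0.21) and Zfp691 (0.06) gave log2 fold changes on either side of 0 per the authors' deposited table.

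Related genes of the same families lay above and below the 10. Eno2, the neuronal enolase, rose from 2.15 to 5.66 FPKM according to the authors' deposited table (log2 fold change 1.39, Cuffdiff q = 0.00554), while Eno1 did not pass. The log2 fold change of Eno1 minus that of Eno2 was −1.38, with an SE of 0.40 from the p-values, an upper limit because Eno2 has the smallest p of the table, and 0.73 from the statistics. The muscle enolase Eno3 had 0.22 by the authors' deposited table. Pan-neuronal Elavl3 (1.16), Tubb3 (0.97) and Stmn2 (0.93) were called higher per the authors' deposited table (log2 fold changes). These genes were taken from earlier results of these data, so their calls were known beforehand. No list of neuronal markers was examined. The part of neuronal RNA in the Eno2 value was not tested.

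The relatives of the oxygen sensor and the transporter had smaller fold changes. Egln1 and Egln2, the main and the constitutive prolyl hydroxylases, had log2 fold changes of 0.20 and 0.07 according to the authors' deposited table, below the 0.85 of Egln3. Egln3 minus Egln1 was 0.65 with an SE of 0.34 from the p-values, and 0.68 from the statistics. Bnip3l, a relative of Bnip3, had 0.07 by the authors' deposited table. Slc2a3, the high-affinity glucose transporter, had 0.36 per the authors' deposited table (Cuffdiff p = 0.0503), 0.26 below Slc2a1 with an SE of 0.26 from the p-values and 0.55 from the statistics. Ldhb (0.14) and Aldoc (0.32) stood above Ldha and Aldoa according to the authors' deposited table by less than 1 SE of either difference.

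Among the pyruvate dehydrogenase kinases, Pdk4 had a log2 fold change of 1.11 by the authors' deposited table without a call (Cuffdiff p = 0.00255, q = 0.110). Pdk2 (0.45) and Pdk3 (−0.05) lay on either side of Pdk1 per the authors' deposited table. Vegfb and Vegfc had log2 fold changes of 0.11 and −0.10 according to the authors' deposited table. Pgf, the placental growth factor, had −0.72 by the authors' deposited table (Cuffdiff p = 0.00715, q = 0.230), 1.15 below Vegfa with an SE of 0.33 from the p-values and 0.67 from the statistics.

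**Figure D4:**
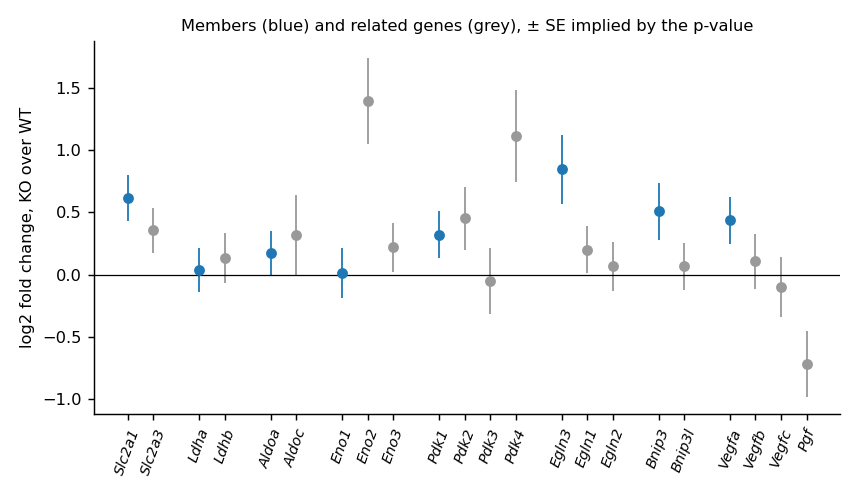
Log2 fold change (y axis, Shh KO over Shh WT) of each gene with relatives (blue) and of its relatives (grey), with bars of ± 1 SE implied by the p-value. Eno2 and Pdk4 stand above Eno1 and Pdk1, while the relatives of Egln3, Bnip3 and Vegfa stand below them.

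The wider pathways were described with 5 further lists, also chosen with earlier results of these data known, which gave 5 calls in all. At a q under 0.01, 2 of these calls were left. With Benjamini-Yekutieli adjustment 0 were left, an outcome fixed in advance, since the smallest p then gives a q of 0.0571. With the test statistic read as standard normal 0 were left too. That reading makes p-values larger in general, as the statistic had a median of 0.476 times the normal quantile of p. Of 35 tested rows of other hypoxia response genes (34 genes), 3 were called higher and 0 lower, against 1.56% and 0.383% of all named tested rows. A fold change above 0 was seen in 29 of the 35, against 54.9% of all named tested rows, with a median log2 fold change of 0.22. Plod2 had 2 rows at the same position, at 1.44, the highest of the list, and at −0.23, neither of them called. Ndrg1, a stress-induced gene of cell differentiation, rose from 4.50 to 9.35 FPKM per the authors' deposited table (Cuffdiff q = 0.00554). Bhlhe40, a transcriptional repressor, rose from 2.1 to 4.4 FPKM according to the authors' deposited table (Cuffdiff q = 0.0137), in a row that overlaps another gene. Adm, the vasodilator peptide adrenomedullin, rose from 5.16 to 10.6 FPKM by the authors' deposited table (Cuffdiff q = 0.0454). At an unadjusted Cuffdiff p under 0.05 there were 7 rows higher and 1 lower, against 5.83% and 1.68% of all named tested rows. The lower row was Car12, at −0.67 on the log2 scale per the authors' deposited table, which was chosen after its value was seen.

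Of 24 tested genes of glucose uptake and glycolysis outside the 10, 2 were called higher and 0 lower, against 1.56% and 0.383% of all named tested rows. A fold change above 0 was seen in 18 of the 24, against 54.9% of all named tested rows (median log2 fold change 0.15). The called genes were Eno2 and Pgam2, the muscle form of phosphoglycerate mutase, which rose from 27.7 to 56.9 FPKM according to the authors' deposited table (Cuffdiff q = 0.0176). At an unadjusted Cuffdiff p under 0.05, 2 genes were higher and 1 lower, against 5.83% and 1.68% of all named tested rows. The lower gene was Pklr, the pyruvate kinase of liver and red cells, at −0.73 by the authors' deposited table (Cuffdiff q = 0.0871). It was chosen after its value was seen, and its row overlaps another gene. Gapdh had a row that Cuffdiff left untested.

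Of 17 tested rows of the oxygen sensing machinery, 0 were called by Cuffdiff and 0 reached an unadjusted p under 0.05, with a median of 0.03. Hif1a (−0.02), Epas1 (−0.10) and Arnt (0.01), subunits of HIF, and Vhl (0.21), which marks the alpha subunit for destruction, were not called per the authors' deposited table (log2 fold changes). Arnt stood at −0.02 when fold changes were centred on the median of all named rows. HIF is controlled mainly through protein stability, which RNA does not show. Of 30 genes of pyruvate entry and the citric acid cycle, 0 were called by Cuffdiff, 1 (Pdk4) was higher at an unadjusted p under 0.05, and the median was 0.05. Of 9 genes of the VEGF family and its receptors, 0 were called by Cuffdiff, 1 (Pgf) was lower at an unadjusted p under 0.05, and the median was −0.08. Beside these lists, 1.94% of all named tested rows were called in either direction. At an unadjusted p under 0.05, 5.83% of all named tested rows were higher and 1.68% lower.

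**Figure D5:**
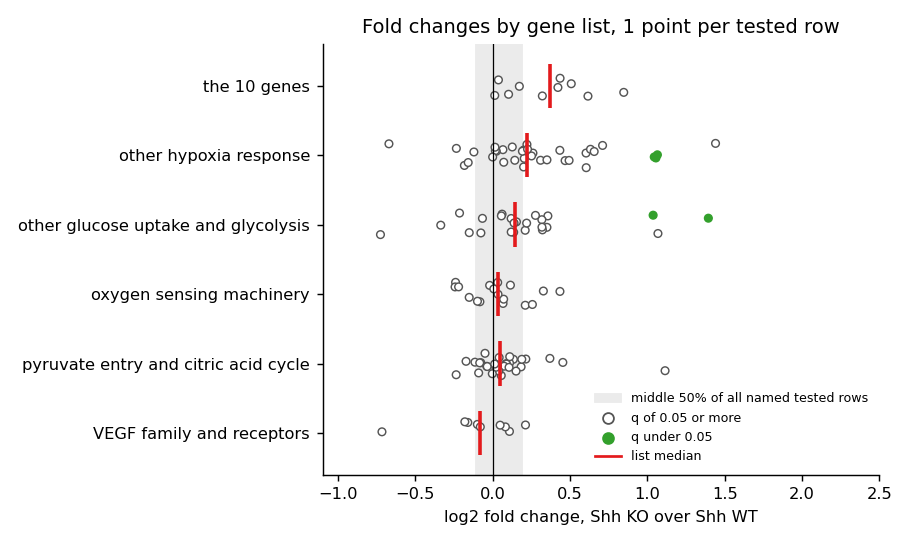
Log2 fold changes (x axis, Shh KO over Shh WT) of the 10 genes and of 5 further lists, 1 point per tested row, filled where the deposited q is under 0.05, with a red bar at each list's median. The medians run from 0.37 for the 10 genes, 0.22 for other hypoxia genes and 0.15 for other glycolysis genes to 0.03, 0.05 and −0.08 for the lists below, and the grey band holds the middle 50% of all named rows.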

How the data were processed

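PolyA RNA-seq libraries (4 Shh WT, 5 Shh KO), read as stranded single-end reads of 50 bp per the labels' protocols, were handled with TopHat2 2.0.10 and Cuffdiff 2.1.1, per the submitters' processing notes. The sources used here do not give the Cuffdiff options. The deposited full table gives a log2 fold change, a test statistic (the authors' score), a p-value and a q-value per row. The shorter deposited table gives 1 pooled FPKM value per genotype, their ratio and its log2 for 253 genes. For these genes, the log2 fold change of the full table agreed within 1.07e-05 with the log2 ratio of Shh KO to Shh WT FPKM. That sets the direction as Shh KO over Shh WT. The test statistic had the opposite sign to the fold change in all 16918 tested rows compared.

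Rows with a p-value under 1 (16944) were taken as tested, since Benjamini-Hochberg adjustment over them returned all deposited q-values within 0.0001. The 13048 named tested rows whose fold change is a number formed the background. A call is a deposited Cuffdiff q under 0.05. No test of libraries could be added. The notes name the build mm9, but all 10 rows overlap their RefSeq gene in GRCm38 (mm10), so positions are given as mm10, with 1 added to the deposited start. RefSeq promoter windows matched all 10 genes. The 10 genes were fixed by symbol, and 5 further pathway lists and 6 marker lists were written from textbook knowledge. Members and lists were chosen with earlier results of these data known. Genes named outside the 10 are the called genes of the pathway lists, some genes at an unadjusted p under 0.05, and relatives of the 10. Hif1a, Epas1, Arnt, Vhl, Shh, genomic neighbours, near-identical copies and genes from earlier results of these data are named too. Plod2 and Gapdh are named for a limit of their rows. Not every called marker and not every gene at an unadjusted p under 0.05 is named. Python 3.11.15, pandas 2.3.3 and SciPy 1.17.1 were used, and the adjustment and motif search were tested on simulated data.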

Additional observations from a re-analysis of the deposited data

How the results depend on the processing

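No paired analysis was possible because the deposited tables hold no value per library, and for the same reason no replicate could be left out. Adding a constant to FPKM was not run, since no FPKM value was given for the 10 genes. Of the 10 genes, 0 were called as deposited, 1 (Slc2a1) at a q under 0.10, 1 (Slc2a1) with Benjamini-Hochberg adjustment over named rows, and 4 at an unadjusted p under 0.05, a setting chosen after seeing the data. The 5 further lists gave 5 calls, against 2 at a q under 0.01, 0 with Benjamini-Yekutieli adjustment, 0 with p from the statistic read as standard normal, and 13 at an unadjusted p under 0.05. For glycolysis genes the 2 calls became 1, 0 and 0 in the first 3 of these settings. For hypoxia genes the 3 calls became 1, 0 and 0, and 8 at an unadjusted p under 0.05. Over all named rows, reading the statistic as standard normal left 6 calls higher and 17 lower. Benjamini-Yekutieli left 0 and could leave none, since at the smallest p of 5e-05 it gives a q of 0.0571. Leaving out overlapping rows moved none of these counts by over 1.5 times. The median of the 10 genes moved by less than the median SE of a member under the alternatives run. Centring reversed the sign of 2 of 34 named genes, Eno1 to −0.0116 and Arnt to −0.0177. Depth per library is unknown, which limits low genes most. The cause of these changes was not tested beyond the construction of each setting.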
